A study of Mus musculus with 16 samples.

Results

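The response of the liver to partial hepatectomy (PHx) was examined in mice whose hepatocytes lack a working Ppara gene, described across all genes of the deposited array table. The 8 arrays are 4 of PparaΔHep livers taken 12 h after PHx and 4 of PparaΔHep livers taken 12 h after a sham operation, out of 16 arrays in the series. The other 8 arrays hold the same operations and the same time in Ppara fl/fl livers, the floxed controls that served as wild type, and they are used only for comparison. Both genotypes carry the floxed gene, which in PparaΔHep mice is disrupted in hepatocytes and not, by that design, in the other cells of the liver. No source used here names the driver of the disruption or the strain, age or sex of the mice. Whether the 4 arrays of a group come from 4 mice is not stated either, so a p-value reflects variation among arrays that could be partly technical. Of 30142 genes named by a probe set with 1 symbol, 75 of chromosome Y and 1732 of the vomeronasal, olfactory and Speer families were set aside, which left 28335.

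PHx removes part of the liver, and the hepatocytes that remain re-enter the cell cycle while still carrying the metabolic work of the whole organ. PPARα is a nuclear receptor that is switched on by fatty acids and drives the genes that burn them in mitochondria and peroxisomes. In the hours after PHx the remaining liver takes up fat from the blood and stores it in droplets, the time at which these livers were sampled per the labels.

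Levels are log2 values made by RMA, a method that corrects background, normalizes between arrays and combines the probes of a probe set. A change is the PHx mean minus the sham mean on that scale, with its standard error (SE) from a limma fit over the 4 groups. A gene is said to rise or fall only where its adjusted p (Benjamini-Hochberg over all genes) was below 0.05. In PparaΔHep livers 3695 of the 28335 genes rose (13%) and 5263 fell (18.6%). Most named genes lie near background on these arrays, so the 1835 protein-coding genes with a mean level of at least 6 over the 16 arrays are called bright here. Of the bright genes 883 fell (48.1%) and 89 rose (4.85%), and their median change was -0.29. On 908 of them (49.5%) the 4 PHx arrays lay all above or all below the 4 sham arrays. A change of at least 2-fold was reached by 141 bright genes that fell and 16 that rose.

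The size of this general fall of bright genes depended on the scale, and each group of genes below is read against it. With array medians subtracted 42 bright genes rose and 1196 fell, and with cyclic loess 258 rose and 457 fell. Centring each array on its bright genes sets their median change near 0 by construction, so a near balance of calls was fixed in advance. After that centring 508 of them rose (27.7%) and 410 fell (22.3%). Of all 28335 kept genes 19019 then rose and 1525 fell, and centred counts of groups near background stand beside that. Of all called genes 41.2% were higher on the deposited scale, 50.4% after cyclic loess, 92.6% after that centring and 13.9% after subtraction of array medians, and these 3 settings moved the median change of all genes by -0.009, 0.305 and -0.129. In fl/fl livers 127 bright genes rose (6.92%) and 688 fell (37.5%) under the same test. Positive control probe sets moved with the operation as well, with a median of 6.01 ± 0.05 on sham and 5.54 ± 0.16 on PHx arrays (SD, n = 4), and their part in these counts was not tested. The rows set aside stood out on PHx arrays, where 64 of the 75 chromosome Y rows rose, with a median change of 2.87. The single-copy Y genes Kdm5d and Uty went the other way, at -0.40 and -0.15, and after centring at -0.10 and 0.16. Of rows kept, Csprs (2.26 ± 0.13), a gene with many repeated copies that is among the 15 largest rises, and the mitochondrial tRNA gene mt-Tk (3.35 ± 0.36) moved with those rows. Whether these rises, and those of rows near background, reflect RNA of the genes named was not tested.

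**Figure D1:**
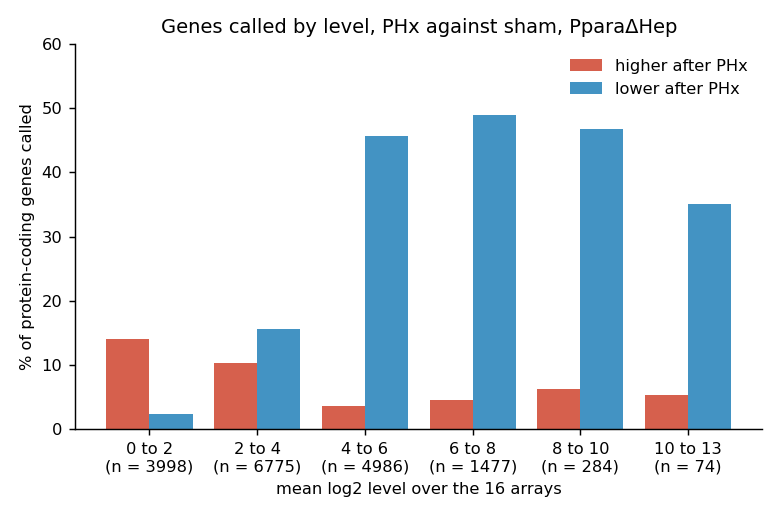
Share of protein-coding genes called higher (red) or lower (blue) after PHx in PparaΔHep livers, in bins of the mean log2 level over the 16 arrays, with the number of genes in each bin. Among genes at 0 to 2, near background, 14% were higher and 2.38% lower, while at 6 to 8 the shares were 4.54% and 49%.

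The largest falls were of bile acid synthesis, the route by which the liver turns cholesterol into bile acids. Cyp7a1, its rate-limiting enzyme, stood at 8.10, 8.87, 7.90 and 8.92 on sham arrays 1 to 4 and at 6.39, 2.54, 1.79 and 1.91 on PHx arrays 1 to 4. On 3 of the PHx arrays the level was near that of the negative controls (2.02), and the change was -5.29 ± 1.23 (SE; adjusted p = 0.00437). Cyp8b1, which sets the balance of cholic acid, stood between 8.67 and 8.87 on sham arrays and at 7.38, 4.18, 3.50 and 3.94 after PHx, a change of -4.0 ± 0.95 (adjusted p = 0.00485). For both genes PHx array 1 kept a much higher level than the other PHx arrays, yet lay below every sham array. With PHx arrays 1 and 2 alone neither was called. In all, 6 of 12 synthesis genes fell and 0 rose, with a median of -0.59, and after centring 6 fell and 1 rose. Bright members fell in 4 of 10, beside 48.1% of all bright genes, and after centring in 4 of 10, beside 22.3%. Hsd3b7, the next step of the pathway, fell by 1.61, while Cyp27a1 of the alternative route changed by -0.35 and did not pass.

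Bile acid transporters moved in both directions, with 7 of 17 genes of uptake, export and their control lower and 4 higher, and 6 lower and 6 higher after centring. Bright members fell in 7 of 11 and rose in 2, beside 48.1% and 4.85% of all bright genes. Slco1b2 and Slc10a1, uptake carriers of the blood-facing membrane, fell by 1.48 and 0.85. Slco1a4, another uptake carrier, rose by 1.59. Slc51b, one chain of the exporter that sends bile acids back to blood, stood at 2.98, 2.66, 2.22 and 2.20 on sham arrays and at 2.85, 5.76, 7.30 and 7.70 after PHx. The groups overlap through PHx array 1, and the change of 3.38 ± 1.14 (adjusted p = 0.0335) was not called when any single array other than PHx array 1 was left out. Nr1h4, which encodes the bile acid receptor FXR, fell by 1.41 ± 0.39, and its target gene Nr0b2 (SHP) changed by 0.40 ± 0.73 and did not pass (adjusted p = 0.72). In fl/fl livers Nr0b2 changed by -2.05 ± 0.73, and the difference between the genotypes of 2.44 ± 1.03 did not pass (adjusted p = 0.404, unadjusted 0.0321).

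**Figure D2:**
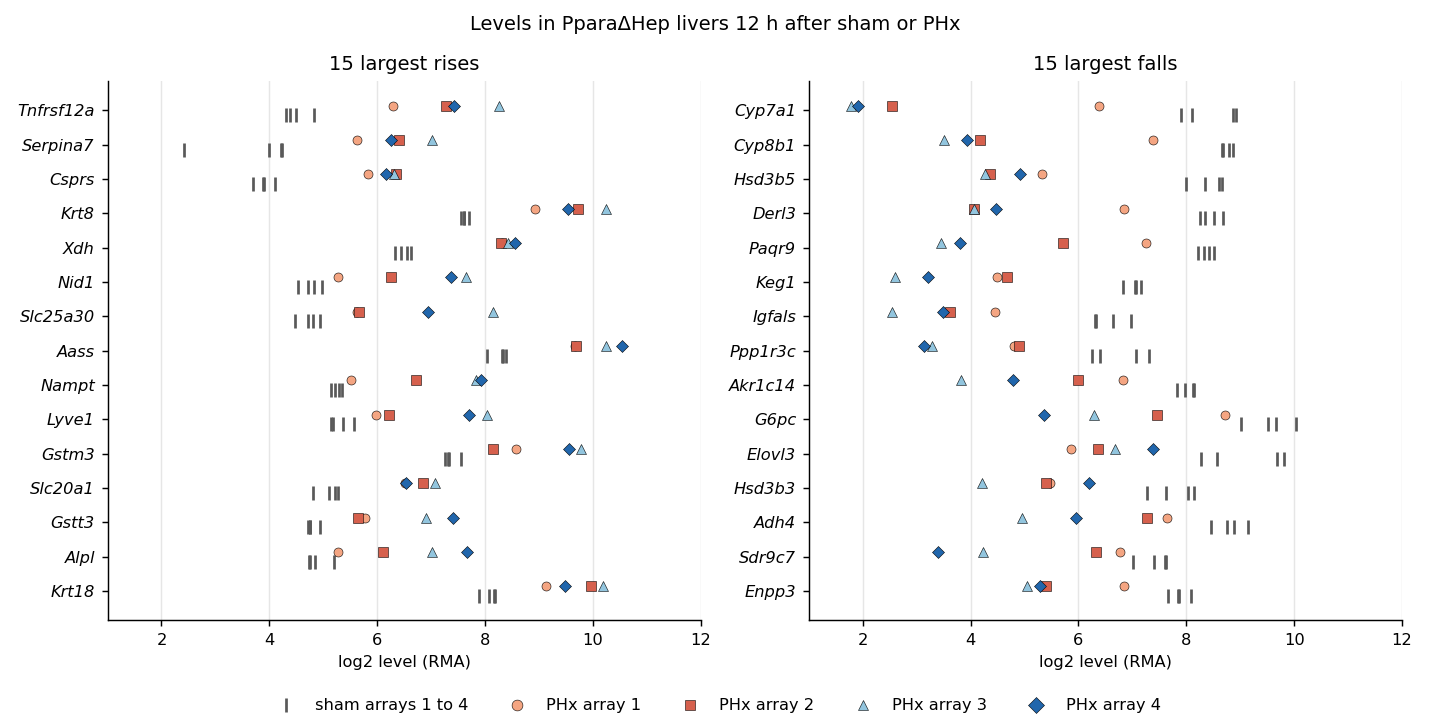
Log2 level of the 15 genes with the largest rises (left) and the 15 with the largest falls (right) after PHx in PparaΔHep livers, with grey ticks for the 4 sham arrays and a coloured symbol for each PHx array. PHx arrays spread widely for some genes, as for Cyp7a1 at 6.39 on PHx array 1 and 1.79 to 2.54 on the others.

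All 19 measured genes of cholesterol synthesis fell, with a median of -1.18, and 18 of them still fell after centring on bright genes. Bright members fell in 11 of 11, beside 48.1% of all bright genes, and after centring in 10 of 11, beside 22.3%. Hmgcs1, which makes the HMG-CoA that the pathway starts from, stood at 9.88, 9.42, 9.98 and 9.82 on sham arrays and at 8.38, 9.41, 8.62 and 7.16 after PHx. Sham array 2 and PHx array 2 were nearly level for this gene, and the change was -1.38 ± 0.34 (adjusted p = 0.00579). Sqle, the squalene epoxidase, fell by 1.10 ± 0.24 and Lss, which closes the sterol ring, fell by 1.45. Srebf2, the transcription factor that drives the pathway, fell by 0.77 ± 0.12, and Scap, which escorts it to the Golgi, fell by 0.47. Hsd17b7, a late enzyme, fell by 0.79 ± 0.16 and stood apart from fl/fl livers, where its change was 0.15 ± 0.16; the difference of -0.94 ± 0.23 did not pass (adjusted p = 0.325).

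Fatty acid synthesis fell in 14 of 19 genes and rose in 0 (median -0.75, and 10 lower after centring). Bright members fell in 11 of 16, beside 48.1% of all bright genes, and after centring in 8 of 16, beside 22.3%. Mlxipl, which encodes the glucose-sensing factor ChREBP, stood between 6.62 and 7.27 on sham arrays and at 5.92, 5.0, 5.45 and 5.78 after PHx, and it fell by 1.5 ± 0.20 (adjusted p = 4.98e-05). Gpam, the first acyltransferase of triglyceride synthesis, fell by 1.35 ± 0.34 and Fads2, a desaturase of polyunsaturated fat, by 1.45 ± 0.42. Fasn and Acly fell by 0.78 and 0.83. Scd1, the desaturase that makes oleate, kept a high level, between 9.59 and 10.77 on PHx arrays and between 10.07 and 10.42 on sham arrays. Angptl8, an insulin-responsive inhibitor of lipoprotein lipase, stood between 7.20 and 7.90 on sham arrays and at 5.93, 5.95, 5.54 and 3.92 after PHx, and it fell by 2.17 ± 0.45 (adjusted p = 0.00195).

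**Figure D3:**
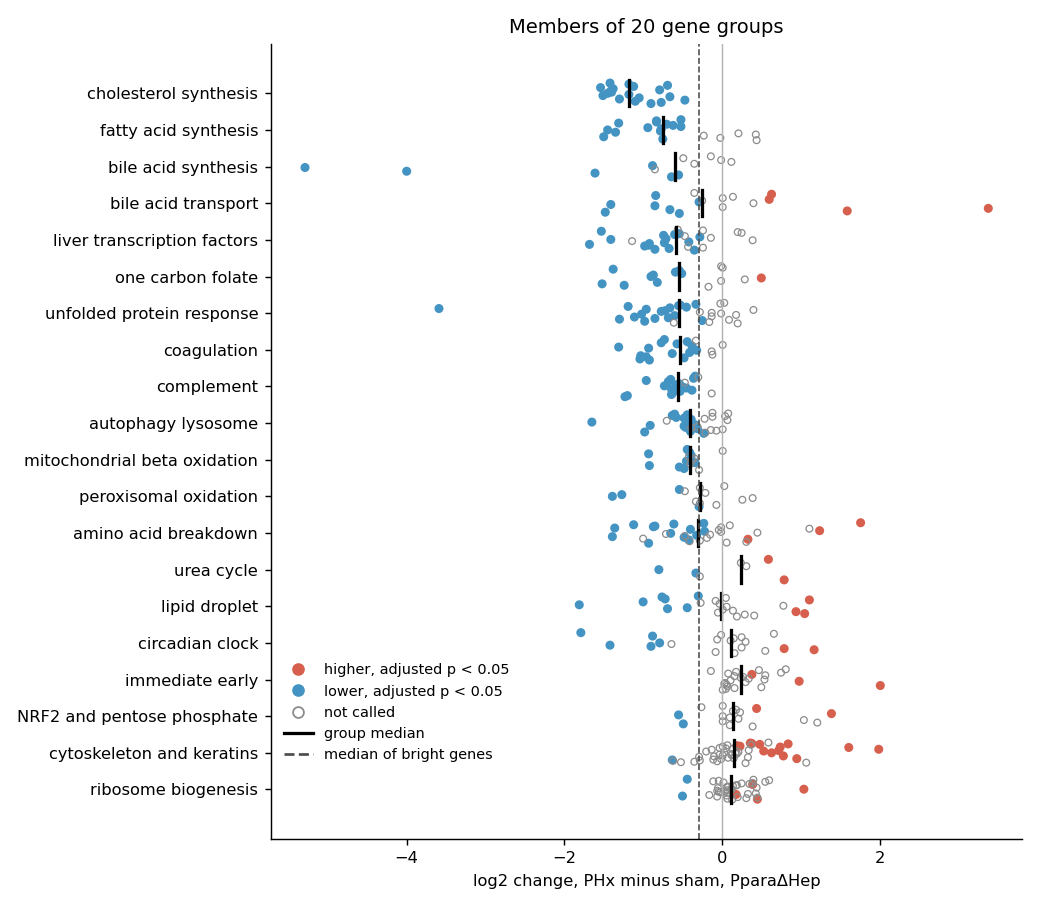
Log2 change after PHx in PparaΔHep livers of each measured member of 20 gene groups, red where it rose, blue where it fell and open where it did not pass, with the group median as a black bar and the bright genes' median of -0.29 as a dashed line. All 19 cholesterol synthesis genes lie left of 0, while the group of cytoskeleton and keratins has 14 members that rose and 1 that fell.

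Of 30 chaperone, degradation and sensor genes of the endoplasmic reticulum (ER) 18 fell and 0 rose (median -0.54). The unfolded protein response raises these genes when client proteins crowd the ER, through the sensors IRE1, PERK and ATF6, and the factors ATF6 and NF-Y meet on a promoter motif named the ER stress response element, ERSE. Among bright members 14 of 24 fell, against 48.1% of all bright genes, and after centring 11 of 24, against 22.3%. The motif searched was CCAAT, then 9 bases, then CCACG, on both strands of RefSeq promoters (250 bases before to 50 after the start, GRCm38.p6). It was found in 39 of 32851 promoters (0.119%) and in 9 of the 28 promoters of the group (32.1%), which belong to 9 of 27 genes. Windows of 59 bases around these motifs, all upstream of the start, are given because they show which chaperone promoters share the element. Capitals mark the motif, and each window is written along its gene's own strand.

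Derl3, chr10:75893222-75893280, plus strand: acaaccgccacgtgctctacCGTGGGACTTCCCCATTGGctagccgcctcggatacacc
Creld2, chr15:88819500-88819558, plus strand: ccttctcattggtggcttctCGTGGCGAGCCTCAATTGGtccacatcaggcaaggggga
Pdia6, chr12:17266471-17266529, plus strand: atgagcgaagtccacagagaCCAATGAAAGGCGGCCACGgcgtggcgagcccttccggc
Dnajc3, chr14:118937807-118937865, plus strand: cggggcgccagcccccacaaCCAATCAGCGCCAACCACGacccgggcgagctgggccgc
Hsp90b1, distal, chr10:86705618-86705676, minus strand: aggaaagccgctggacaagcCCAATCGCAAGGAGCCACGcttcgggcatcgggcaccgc
Hsp90b1, proximal, chr10:86705513-86705571, minus strand: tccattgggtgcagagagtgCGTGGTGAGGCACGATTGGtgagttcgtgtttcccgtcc
Canx, chr11:50325780-50325838, minus strand: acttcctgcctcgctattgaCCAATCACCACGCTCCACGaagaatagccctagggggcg
Calr, chr8:84847055-84847113, minus strand: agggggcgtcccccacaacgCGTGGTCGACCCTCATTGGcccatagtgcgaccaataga
Syvn1, chr19:6046512-6046570, plus strand: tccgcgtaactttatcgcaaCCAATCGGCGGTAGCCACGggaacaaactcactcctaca
Hspa5, chr2:34772005-34772063, plus strand: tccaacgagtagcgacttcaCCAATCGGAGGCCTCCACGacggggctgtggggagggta

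The motif reads in the gene's direction in Pdia6, Dnajc3, Canx, Syvn1, Hspa5 and the distal element of Hsp90b1, and reversed in Derl3, Creld2, Calr and the proximal element of Hsp90b1. None of the 10 matches overlaps a match of the other 3 motifs searched (a sterol element, a direct repeat and the E-box). Of the 9 genes with the element 7 fell, and of the 18 genes with a promoter in the table and no match 9 fell.

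Derl3, part of the channel that returns misfolded proteins to the cytosol, fell most. Its level was 8.26, 8.51, 8.34 and 8.68 on sham arrays and 6.84, 4.07, 4.07 and 4.47 on PHx arrays, and it fell by 3.59 ± 0.44 (12-fold lower; adjusted p = 2.46e-05). PHx array 1 again lay between the other PHx arrays and sham. Creld2, an ER-resident isomerase, stood at 9.47, 9.19, 9.08 and 9.57 after sham and at 9.25, 8.43, 8.02 and 6.86 after PHx. The groups overlap through PHx array 1, and the change of -1.19 ± 0.36 (adjusted p = 0.0203) was not called without sham array 4.

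The chaperones themselves fell by less. Pdia6, a disulfide isomerase, stood between 8.99 and 9.30 on sham arrays and at 8.67, 8.57, 8.12 and 7.88 after PHx, and it fell by 0.85 ± 0.14 (adjusted p = 4.66e-04). Dnajc3, a co-chaperone that curbs PERK, lay between 9.17 and 9.20 after sham and at 8.78, 8.60, 8.27 and 8.22 after PHx, and it fell by 0.72 ± 0.10 (adjusted p = 8.55e-05). The lectin chaperones Canx and Calr fell by 0.55 ± 0.07 and 0.53 ± 0.13, and Hsp90b1 (GRP94) by 0.60 ± 0.14, though centring on bright genes ended the calls of Calr and Hsp90b1. Hspa5, which encodes the master chaperone BiP, stood at 9.69, 9.56, 9.39 and 9.52 after sham and at 9.69, 9.35, 9.43 and 9.15 after PHx. Its change of -0.13 ± 0.14 did not pass (adjusted p = 0.491), and it was 0.17 after centring. Among the sensors Ern1 (IRE1) fell by 1.02 ± 0.23, while Atf6 changed by -0.02 ± 0.15 and Xbp1, the factor downstream of IRE1, by 0.20 ± 0.22. Sdf2l1, an ER protein whose promoter window holds no match, fell by 1.30 ± 0.30, and Hyou1, a large ER chaperone that is not in the promoter table, by 1.11 ± 0.21. In fl/fl livers 16 of the 30 genes fell, and Derl3 fell by 4.08 ± 0.44.

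Fewer elements were found for the other groups searched. The sterol element (TCAC, 1 base, CCAC) was in 1 of 19 promoters of cholesterol synthesis (5.26%), that of Hmgcs1, against 1.24% of all promoters. The direct repeat (AGGTCA, 1 base, AGGTCA) was in 0 promoters of the 3 groups of fat oxidation (13, 11 and 12 promoters), against 0.0396% of all. Only this exact repeat within the promoter window was searched, and 13 of 32851 promoters hold it. A count of 0 in so few promoters therefore cannot tell whether these groups lack the element. The E-box CACGTG, which reads the same on both strands, was in 5 of 24 clock promoters (20.8%), those of Bhlhe41, Cry1, Per1 and Tef, against 7.15% of all.

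Genes of plasma proteins made by hepatocytes fell widely. Of 20 coagulation genes 16 fell and 0 rose (median -0.53, and 11 lower after centring), and of 20 complement genes 17 fell and 0 rose (median -0.56, and 12 lower after centring). Bright members fell in 15 of 18 and 14 of 17, beside 48.1% of all bright genes. After centring they fell in 10 of 18 and 11 of 17, beside 22.3%. F7, the factor that starts the extrinsic pathway, stood between 7.53 and 7.88 on sham arrays and at 6.92, 6.38, 5.89 and 6.50 after PHx, and it fell by 1.31 ± 0.18 (adjusted p = 6.23e-05). Prothrombin (F2) fell by 0.57 and plasminogen (Plg) by 0.41. Mbl2, a lectin that starts complement on microbial sugars, fell by 1.23 ± 0.18, with PHx arrays at 6.60 to 7.28 and sham arrays at 7.79 to 8.42. Albumin (Alb) stood between 11.71 and 11.85 on all 8 arrays, near the top of the scale.

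Of 27 acute phase genes 9 fell and 2 rose, and after centring 5 fell and 13 rose. Bright members fell in 8 of 23, beside 48.1% of bright genes. Saa4, Apcs and Lbp fell by 1.38, 1.21 and 1.08, while Saa1 changed by -0.19 and did not pass. Hamp, which encodes the iron hormone hepcidin, stood at 9.71, 10.51, 9.43 and 9.97 after sham and at 11.52, 11.30, 10.66 and 11.15 after PHx. All PHx arrays lay above all sham arrays, and the rise was 1.25 ± 0.27 (adjusted p = 0.00291). Hamp2, a near copy whose probes may be shared, rose by 1.15 ± 0.24. Id1, a target of the BMP signal that controls hepcidin, rose by 0.69 ± 0.11. The iron sensors Tfr2, Hfe and Hjv, which feed that signal, fell by 0.78, 0.69 and 0.72. Within iron and haem handling as a group 12 of 27 fell and 5 rose (6 and 11 after centring). Bright members of that group fell in 6 of 16, beside 48.1% of all bright genes. Hmox1 (1.39 ± 0.32), which breaks down haem, and Alas1 (0.81 ± 0.29), which starts its synthesis, were among the 5 that rose.

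Of 12 glycogen genes 6 fell and 3 rose (5 and 5 after centring), and of 10 gluconeogenesis genes 3 fell and 1 rose (2 and 3 after centring). Bright members fell in 3 of 6 and 3 of 7, close to the 48.1% of all bright genes. Ppp1r3c and Ppp1r3b, subunits that bring a phosphatase to glycogen, fell by 2.73 ± 0.41 and 2.05 ± 0.40, and Pygl, the liver phosphorylase, by 0.92. Levels of Ppp1r3b were 7.37, 7.08, 7.40 and 7.39 after sham and 6.41, 5.98, 4.52 and 4.14 after PHx. G6pc, which releases free glucose, stood at 9.52, 9.01, 10.04 and 9.66 after sham and at 8.71, 7.46, 6.28 and 5.37 after PHx, and it fell by 2.60 ± 0.69 (adjusted p = 0.00994). No PHx array reached the sham range, but the PHx arrays differ among themselves by 3.34. Pck1, the entry enzyme of gluconeogenesis, changed by -0.21 ± 0.28 and did not pass, and the glucagon receptor gene Gcgr fell by 1.16 ± 0.16. Sik1, a kinase induced by glucagon signalling, rose by 1.5 ± 0.46.

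Groups of fat oxidation, whose genes PPARα drives, held falls and no rise. Of 15 genes of mitochondrial β-oxidation 9 fell and 0 rose (median -0.41), of 13 peroxisomal genes 4 fell and 0 rose (median -0.28), and of 13 microsomal hydroxylase and thioesterase genes 3 fell and 0 rose (median -0.04). Bright members fell in 8 of 14, 2 of 8 and 1 of 9, beside 48.1% of bright genes. After centring 2 mitochondrial genes stayed lower and 1 was higher, the group median was -0.11, and the peroxisomal median turned to 0.03. Acads, the short-chain dehydrogenase, stood between 5.99 and 6.35 after sham and between 5.13 and 5.32 after PHx, and it fell by 0.93 ± 0.11 (adjusted p = 1.86e-05). Crot and Crat, which pass acyl groups to carnitine, fell by 1.39 ± 0.26 and 1.27 ± 0.21. Cpt1a, the gate of mitochondrial fat oxidation, stood at 8.39, 8.60, 8.18 and 8.01 after sham and at 8.80, 7.77, 7.32 and 7.63 after PHx, and its change of -0.42 ± 0.30 did not pass (adjusted p = 0.317). Ppara itself was at 6.29, 6.43, 6.43 and 6.05 after sham and 6.26, 5.02, 5.28 and 4.70 after PHx. The groups overlap, and its change of -0.98 ± 0.33 (adjusted p = 0.035) was not called after cyclic loess or centring, or when any of 6 single arrays was left out. This probe set may cover exons outside the disrupted part, and other liver cells keep the gene, so it does not check the genotype. Cyp4a14, a classical target, ran from 2.37 to 4.85 on sham and from 2.27 to 6.97 on PHx arrays, with a change of 1.03 ± 1.11 (adjusted p = 0.513).

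Of 22 lipid droplet genes 3 rose and 7 fell, beside 13% and 18.6% of all genes. After centring 12 rose and 2 fell, beside 19019 and 1525 of all 28335 kept genes. Plin2, the main droplet coat protein of hepatocytes, stood at 8.23, 8.58, 8.38 and 8.49 after sham and at 9.16, 9.02, 9.79 and 9.45 after PHx, a rise of 0.94 ± 0.14 (adjusted p = 1.27e-04). Plin4 rose by 1.05 ± 0.35. Cidec, which fuses droplets, was at 2.74 to 2.89 on sham arrays and at 2.99, 3.26, 5.27 and 4.25 after PHx, a rise of 1.11 ± 0.38 (adjusted p = 0.0364) that was not called without PHx array 3 or 4 or any single sham array. G0s2, an inhibitor of the lipase ATGL, stood at 6.54, 7.23, 6.81 and 7.38 after sham and at 5.69, 5.43, 4.71 and 4.89 after PHx, and it fell by 1.81 ± 0.42 (adjusted p = 0.0045). Dgat2, the last enzyme of triglyceride synthesis, fell by 1.00. Mfsd2a, which imports lysophospholipids, was at 2.65 to 3.44 after sham and at 3.23, 3.74, 8.39 and 8.90 after PHx. Its PHx arrays fall into a low and a high pair, and the change of 3.07 ± 1.12 (adjusted p = 0.0472) was not called without PHx array 3 or 4 or any single sham array. Gpcpd1, which releases choline from glycerophosphocholine, rose by 1.52 ± 0.32.

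In the urea cycle, which turns ammonia into urea, 2 of 7 genes rose and 2 fell (4 and 1 after centring). Of its 6 bright members 2 rose and 1 fell, beside 4.85% and 48.1% of all bright genes. Arg1, the last enzyme, stood between 9.25 and 9.60 after sham and between 9.90 and 10.25 after PHx, a rise of 0.59 ± 0.11 (adjusted p = 0.00114), and the ornithine carrier Slc25a15 rose by 0.79 ± 0.17. Nags, which makes the activator of the first enzyme, fell by 0.80. Of 32 amino acid breakdown genes 14 fell and 3 rose, and after centring 8 fell and 10 rose. Bright members fell in 12 of 29, beside 48.1% of bright genes. Aass, which degrades lysine, stood at 8.34, 8.38, 8.03 and 8.31 after sham and at 9.66, 9.69, 10.24 and 10.53 after PHx, a rise of 1.76 ± 0.20 (adjusted p = 1.05e-05). Got1, the cytosolic aspartate aminotransferase, rose by 1.24 ± 0.41. Ido2 and Csad fell by 1.39 and 1.36. Bhmt, which remethylates homocysteine, fell by 0.85 on a probe set whose identifier names another chromosome than the gene's, and its other probe set changed by -0.70. Folate and glycine genes fell in 9 of 15 and rose in 1 (7 and 3 after centring). Their bright members fell in 7 of 8, beside 48.1% of all bright genes, and after centring in 5 of 8, beside 22.3%. Shmt2, the mitochondrial serine hydroxymethyltransferase, lay between 6.93 and 7.25 after sham and between 5.63 and 6.02 after PHx, and it fell by 1.24 ± 0.09 (adjusted p = 1.05e-07). Shmt1 and Amt fell by 1.52 ± 0.34 and 1.38 ± 0.20.

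Transcription factors that define hepatocytes fell in 16 of 26 and rose in 0 (median -0.58, and 10 lower after centring). Bright members fell in 6 of 13, close to the 48.1% of all bright genes, and after centring in 5 of 13, beside 22.3%. Cebpa, a factor of mature hepatocytes that restrains their division, stood between 6.98 and 7.16 after sham and at 6.06, 5.63, 5.14 and 5.30 after PHx, and it fell by 1.53 ± 0.24 (adjusted p = 2.02e-04). Onecut1 (HNF6), Thrb, a thyroid hormone receptor, and Nr5a2, a regulator of bile acid genes, fell by 1.68, 0.85 and 0.92. Hnf4a, the central factor of the hepatocyte, changed by -0.14 ± 0.11 and did not pass, with all 8 arrays between 7.39 and 7.83. Nr1i3 (CAR) stood at 7.86 and 7.26 on PHx arrays 1 and 2, within the sham range of 7.29 to 7.93 or just under it, and at 5.47 and 5.18 on arrays 3 and 4.

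Of 19 clock genes 5 fell and 2 rose, beside 18.6% and 13% of all kept genes. After centring 5 fell and 12 rose, beside 1525 and 19019 of all 28335 kept genes. Arntl (BMAL1), an activator of the clock, stood between 5.36 and 5.87 after sham and between 3.63 and 4.14 after PHx, and it fell by 1.79 ± 0.20 (adjusted p = 1.03e-05). Npas2, another activator, stood between 4.11 and 4.70 and then between 2.83 and 3.06, and it fell by 1.42 ± 0.14 (adjusted p = 1.70e-06). Clock fell by 0.88 ± 0.16. The repressors Per2 and Per1 rose by 1.17 ± 0.18 and 0.79 ± 0.19. For these 5 genes no PHx array reached the sham range.

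Of 40 growth factor and receptor genes 7 rose and 9 fell, beside 13% and 18.6% of all kept genes. After centring 21 rose and 7 fell, beside 19019 and 1525 of all 28335 kept genes. Tnfrsf12a, the TWEAK receptor, stood at 4.30, 4.39, 4.83 and 4.50 after sham and at 6.30, 7.28, 8.26 and 7.42 after PHx, the largest rise by the naming rule (2.81 ± 0.36, 7.01-fold; adjusted p = 4.06e-05). The leptin receptor gene Lepr rose by 1.69 ± 0.52, to 5.94 on PHx array 4 but only 3.02 and 3.07 on arrays 1 and 2. Btc and Ereg, ligands of the EGF receptor, rose by 0.77 ± 0.25 and 0.57 ± 0.17. Lifr, a receptor of the IL-6 family, fell by 1.03 ± 0.19, the HGF receptor Met by 0.72 ± 0.19 and the FGF co-receptor Klb by 1.76 ± 0.33. Egfr changed by -0.42 ± 0.28 and did not pass. Igfals, which holds IGF-1 in the circulation, stood at 6.97, 6.30, 6.64 and 6.33 after sham and at 4.45, 3.62, 2.55 and 3.49 after PHx, and it fell by 3.04 ± 0.39 (adjusted p = 3.87e-05). Inhbc, a liver activin chain, fell by 1.90 ± 0.52.

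Of 25 immediate early genes 3 rose and 0 fell, beside 13% of all kept genes that rose. After centring 19 rose, beside 19019 of all 28335 kept genes, and the centred counts of the next groups stand beside the same share. Klf6 stood at 3.62 to 3.89 after sham and at 4.44, 5.33, 6.97 and 6.28 after PHx, a rise of 2.01 ± 0.50 (adjusted p = 0.00647), and Jun rose by 0.98 ± 0.27. Myc changed by 0.50 ± 0.20 and did not pass (adjusted p = 0.0764), with PHx arrays 3 and 4 at 5.57 and 5.25 and the other 6 arrays between 4.35 and 4.75. Of 40 ribosome biogenesis genes 4 rose and 2 fell (33 and 1 after centring). Nop58, a core protein of snoRNA particles, rose by 1.04 ± 0.29 and nucleolin (Ncl) by 0.39 ± 0.14. Genes of mitosis lay near background, and of 23 none rose and 1 (Kif11, by 0.13) fell, while after centring 21 rose and Kif11 turned to 0.18. Ccne1, the cyclin of S phase entry, rose by 0.70 ± 0.14 from a low level, 2.63 to 2.80 after sham and 2.98, 3.20, 3.64 and 3.75 after PHx.

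The cytoskeleton held 14 of 47 genes that rose and 1 that fell, and 5 of 15 bright members rose beside 4.85% of bright genes. After centring 8 of these 15 rose, beside 27.7%. Keratins 8 and 18 pair to form the hepatocyte's filaments. Krt8 stood between 7.55 and 7.70 after sham and at 8.93, 9.72, 10.24 and 9.54 after PHx, a rise of 1.99 ± 0.33 (adjusted p = 3.99e-04). Krt18 stood between 7.89 and 8.18 and then at 9.12, 9.97, 10.18 and 9.49, a rise of 1.61 ± 0.26 (adjusted p = 2.90e-04). Both rose on every PHx array, and array 1 had the lowest level of both. Tpm4, a tropomyosin, rose by 0.95 ± 0.16, the actin crosslinker Flna by 0.74 ± 0.16, Anxa2, which links membranes to actin, by 0.84 ± 0.23 and Actb by 0.36 ± 0.10. The β-tubulin genes Tubb2a and Tubb5 changed by -0.62 and -0.52 and did not pass, and Tuba4a fell by 0.63. Krt19, a keratin of bile duct cells, stayed near background with a change of -0.03.

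Further rises by the naming rule did not fall in 1 pathway. Nampt, which makes NAD, stood at 5.15 to 5.34 after sham and at 5.52, 6.71, 7.84 and 7.92 after PHx (1.75 ± 0.52, adjusted p = 0.018), and was not called without PHx array 3 or 4. Slc20a1, a phosphate importer, rose by 1.64 ± 0.26 with PHx arrays between 6.51 and 7.08. The glutathione transferases Gstm3 and Gstt3 rose by 1.65 ± 0.42 and 1.64 ± 0.35. Nid1, of basement membranes, the mitochondrial carrier Slc25a30 and Alpl, an alkaline phosphatase, rose by 1.87 ± 0.54, 1.86 ± 0.52 and 1.63 ± 0.44, all with PHx arrays 3 and 4 above arrays 1 and 2. Xdh, the xanthine oxidase gene, is represented by the brightest of its probe sets, at 6.33 to 6.63 after sham and 8.29 to 8.55 after PHx (1.91 ± 0.09). That probe set's identifier names chromosome 1, while the gene lies on chromosome 17, and the other probe set for Xdh, named for chromosome 17, went from 6.93 ± 0.21 to 7.28 ± 0.32 (SD, n = 4), a change of 0.35. The probe sets named for Xdh thus disagree in size. Of 29766 genes compared, 90 were represented by a probe set named for another chromosome.

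Several of the largest falls were of steroid and drug metabolism. Hsd3b5, a steroid reductase of male mouse liver, stood at 8.66, 8.34, 8.61 and 8.0 after sham and at 5.33, 4.37, 4.27 and 4.91 after PHx, and it fell by 3.68 ± 0.37 (adjusted p = 2.75e-06). Its near copy Hsd3b3, whose probes it may share, fell by 2.45 ± 0.46, and Keg1, a glycine acyltransferase-like gene, by 3.28 ± 0.44. Elovl3, a fatty acid elongase of male liver, fell by 2.52 ± 0.39. Akr1c14, a hydroxysteroid reductase, fell by 2.66 ± 0.61. Adh4, an alcohol dehydrogenase that also acts on retinol, fell by 2.35 ± 0.55. Paqr9, a membrane receptor of the progestin and adipoQ family, stood at 7.26, 5.72, 3.46 and 3.81 after PHx against 8.21 to 8.52 after sham, and fell by 3.31 ± 0.83. Sdr9c7, a short-chain dehydrogenase, fell by 2.23 ± 0.66 and Enpp3, an ectonucleotidase, by 2.22 ± 0.36. Among genes with higher expression in male liver 11 of 20 fell and 0 rose (9 and 3 after centring), and bright members fell in 8 of 16, close to the 48.1% of all bright genes. Genes with higher expression in female liver rose in 4 of 18 and fell in 0, beside 13% of all kept genes that rose. After centring they rose in 13, beside 19019 of all 28335 kept genes. The 4 called on the deposited scale were Cyp2b9, Cyp2b13 and Sult2a1, all at 2.02 or lower on every array, and Cyp2b10. Levels of Cyp2b10 were 2.09 to 2.38 after sham and 2.88, 3.46, 4.82 and 3.34 after PHx. Of 41 cytochrome P450 genes of families 1 to 3 and relatives, 12 fell and 3 rose, and after centring 5 fell and 14 rose. Bright members fell in 10 of 29, beside 48.1% of bright genes. Sult1e1, which inactivates oestrogen by sulfation, stood at 1.60 to 2.25 after sham and at 3.48, 4.95, 5.54 and 7.41 after PHx, a rise of 3.54 ± 0.92 (adjusted p = 0.0086) with no overlap.

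Markers of the other cells of the liver changed in bulk RNA, where fewer cells of a type and less RNA per cell cannot be told apart. Beside the counts that follow, 18.6% of all genes fell, and 45.7% of protein-coding genes at a mean level of 4 to 6. The macrophage, endothelial and stellate cell groups lay in that range, with mean sham levels of 5.38, 5.31 and 4.47. Of 12 Kupffer cell and macrophage markers 8 fell (4 after centring, when 2 rose, and the median moved from -0.39 to -0.09), among them Cd5l by 1.13 ± 0.33 and Csf1r by 0.88 ± 0.12, while Cd68 changed by 0.64 and did not pass. Of 12 sinusoidal endothelial markers 7 fell and Lyve1 rose, and after centring 4 fell and 3 rose. Kdr, the VEGF receptor, lay between 5.66 and 5.96 after sham and between 4.12 and 5.11 after PHx, and it fell by 1.31 ± 0.20. Lyve1, a hyaluronan receptor, stood at 5.14 to 5.57 after sham and at 5.97, 6.21, 8.04 and 7.71 after PHx, a rise of 1.67 ± 0.49 that was not called without PHx array 3 or 4. Stellate cell markers fell in 4 of 12 (3 after centring, when 4 rose), with Lrat, which stores retinol, at 5.04 to 6.01 and then 3.29 to 4.55, and it fell by 1.82 ± 0.28 (adjusted p = 2.29e-04). Colec10 fell by 1.58 ± 0.13, while the collagen genes Col1a1 and Col1a2 changed by 0.04 and 0.00. The neutrophil, T and NK cell and B cell groups had mean sham levels of 2.49, 1.94 and 2.25 and no bright member. They lay near the negative controls, at 1.98 on sham arrays. Of protein-coding genes at a mean level of 0 to 2, 14% rose and 2.38% fell, and at 2 to 4, 10.4% and 15.6%. Of 10 neutrophil markers Cxcr2 rose (0.27), of 11 T and NK cell markers Ncr1 rose (0.17) and of 5 B cell markers none rose. None of these markers fell. After centring 8, 10 and 3 of them rose, beside 19019 of all 28335 kept genes. Hepatocyte markers, all bright, fell in 5 of 14 and rose in 0, beside 48.1% of bright genes that fell, and after centring 2 fell and 8 rose.

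**Figure D4:**
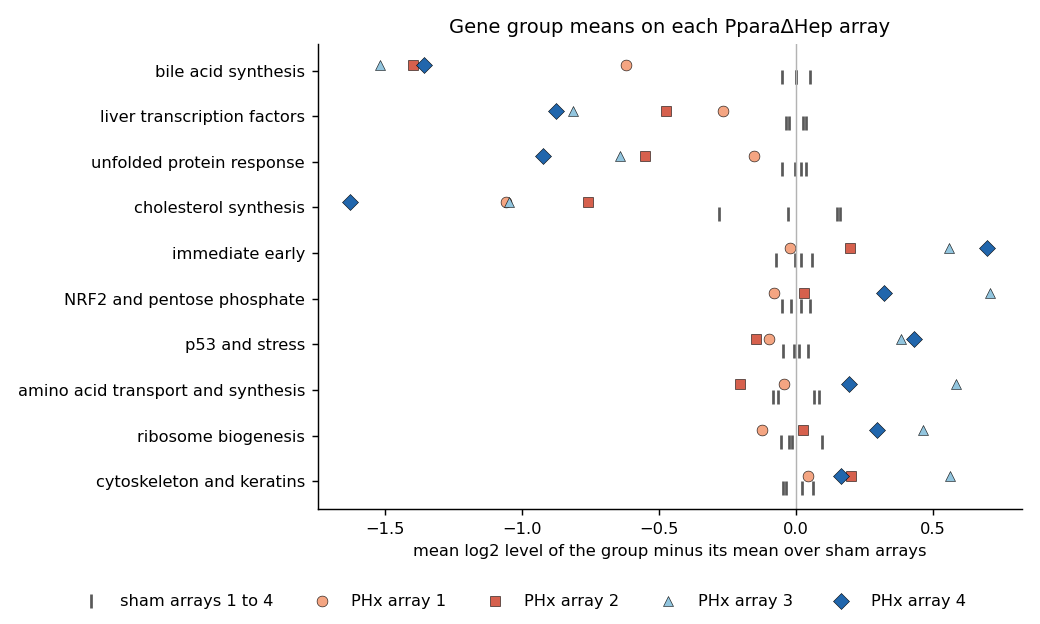
Mean log2 level of 10 gene groups on each PparaΔHep array minus the group's mean over the 4 sham arrays, with grey ticks for sham and coloured symbols for PHx arrays. PHx array 1 lies nearest to sham for bile acid synthesis, liver transcription factors and the unfolded protein response, and arrays 3 and 4 lie highest for immediate early genes.

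The PHx arrays differed among themselves more than the sham arrays. The median SD of a bright gene over 4 arrays was 0.22 after PHx and 0.10 after sham (0.19 and 0.11 in fl/fl livers). Across bright genes, which are not independent replicates, PHx arrays 1 and 2 correlated at 0.965 and arrays 3 and 4 at 0.950, while the other PHx pairs lay between 0.892 and 0.935 and the sham pairs between 0.978 and 0.989. In 50 bright genes the PHx arrays ranged over more than 2, against 2 genes on sham arrays. In 27 of those 50 both arrays 3 and 4 lay below arrays 1 and 2, and in 19 they lay above. The labels number the samples of arrays 1 and 2 next to each other and those of arrays 3 and 4 likewise, and no source used here says whether the numbers mark a batch or litter.

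Genes of that kind were chosen after their values were seen. Cdkn1a (p21), the inhibitor of cyclin-dependent kinases, stood at 5.85 and 6.33 on PHx arrays 1 and 2 and at 8.45 and 9.12 on arrays 3 and 4, with sham between 6.20 and 7.12, and its change of 0.82 ± 0.88 did not pass (adjusted p = 0.517). Srxn1, an antioxidant gene of the NRF2 pathway, stood at 6.12, 6.68, 8.64 and 7.98 after PHx and between 6.10 and 6.21 after sham. Mrap, an accessory protein of the ACTH receptor, was at 6.47 and 6.89 on PHx arrays 1 and 2 and at 8.83 and 9.53 on arrays 3 and 4. Cyp17a1 went the other way, at 7.53 and 6.88 on PHx arrays 1 and 2 and at 4.64 and 4.99 on arrays 3 and 4. Among the 15 largest falls, PHx array 1 showed the smallest change in 11 and array 3 the largest in 11, and the median distance from the sham mean was -1.61, -2.46, -4.01 and -3.63 on arrays 1 to 4. With PHx arrays 1 and 2 alone against sham 546 bright genes fell and 33 rose, and with arrays 3 and 4 alone 907 fell and 138 rose. Both settings were added after the data were seen.

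Some calls given above rested on few arrays or on the scale. Besides those already noted, leaving out 1 PHx array ended the calls of Nid1, Sdr9c7, Plin4, Fasn, Sik1, Got1, Cyp2b10, Onecut1, Btc, Ereg, Lepr, Ncl, Actb, Tuba4a, Alas1 and Cd5l, and leaving out 1 sham array that of Elovl5. PHx arrays 1 and 2 alone did not give a call for Paqr9, Akr1c14, G6pc, Adh4, Gstm3, Slc25a30, Alpl, G0s2, Fads2, Gpam, Slco1b2, Nr1h4, Sult1e1, Jun, Klf6, Met, Inhbc, Hmox1, Per1, Nop58, Anxa2 or Shmt1. PHx arrays 3 and 4 alone did not for Acot1, Acly, Slco1a4, Acsf2 and Elovl5. At least 1 of the other scalings ended the calls of Scap, Fasn, Acly, Plg, Tuba4a, Kdm5d, Acsf2, Grina, Elovl5, Ncl, Actb and Alas1.

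Set beside fl/fl livers, no gene's PHx change differed past the threshold. By limma's interaction term 0 of 28335 genes passed (0%; lowest adjusted p 0.286), with 3269 (11.5%) at an unadjusted p below 0.05, and 155 of the 1835 bright genes (8.45%). Interaction p-values were ranked among protein-coding genes with a mean of at least 6 in either PparaΔHep group. Genes at that level only in fl/fl livers could not enter. The lowest interaction p in that ranking belonged to Cluh, which binds mRNAs of mitochondrial proteins. It stood at 7.04, 7.0, 7.11 and 6.94 after sham and at 6.44, 6.37, 6.53 and 6.41 after PHx in PparaΔHep livers, and it fell by 0.59 ± 0.06 against a change of -0.15 ± 0.06 in fl/fl livers (difference -0.44 ± 0.08, adjusted p = 0.286). Creb3l3, a fasting-responsive factor of the ER membrane, changed by -0.10 ± 0.07 in PparaΔHep livers and 0.39 ± 0.07 in fl/fl livers, and the first value turned to 0.21 after centring. Acsf2 and Elovl5, both of fatty acid metabolism, changed by -0.36 and -0.52 against 0.32 and 0.40. Pctp, a phosphatidylcholine carrier, changed by -0.29 against 1.15, and Grina by -0.34 against 0.17.

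Several droplet and thioesterase genes differed between the genotypes at an unadjusted p below 0.05. Cidec rose by 1.11 ± 0.38 in PparaΔHep and 3.46 ± 0.38 in fl/fl livers, a difference of -2.35 ± 0.54 (adjusted p = 0.315, unadjusted 5.65e-04). Acot1 fell by 1.09 ± 0.26 and changed by 0.70 ± 0.26 in fl/fl livers, with levels of 5.56 to 5.84 after sham and 4.19, 4.11, 5.0 and 5.12 after PHx (difference -1.80 ± 0.36, adjusted p = 0.286). The difference for Cyp7a1 was -3.39 ± 1.74 (unadjusted p = 0.0706). Acot2, a mitochondrial thioesterase, changed by 0.01 ± 0.39 against 2.20 ± 0.39, G0s2 by -1.81 ± 0.42 against 0.24 ± 0.42 and the peroxisome gene Pex11a by -0.07 ± 0.19 against 0.88 ± 0.19. Serpina7, the thyroxine-binding globulin, went the other way. It stood at 2.41, 4.23, 4.21 and 3.99 after sham and at 5.62, 6.40, 7.01 and 6.25 after PHx, a rise of 2.61 ± 0.52 (adjusted p = 0.00154), against 0.02 ± 0.52 in fl/fl livers (difference 2.59 ± 0.74, adjusted p = 0.327). In fl/fl livers Serpina7 was already at 5.65 ± 0.73 after sham (SD, n = 4). An unadjusted interaction p below 0.05 was reached by 9 of 22 droplet, 10 of 18 female-biased and 12 of 41 cytochrome P450 genes. It was reached by 0 of 30 genes of the unfolded protein response, by 11.5% of all kept genes and by 8.45% of bright genes. The female-biased group had a mean sham level of 3.87, and only 5 of its 18 members were bright.

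**Figure D5:**
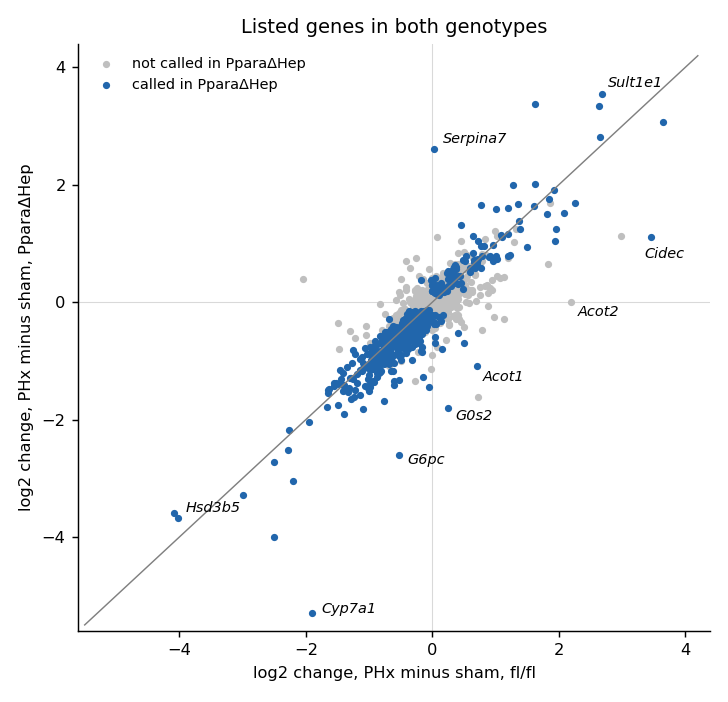
Log2 change after PHx of each listed gene in fl/fl livers (horizontal) and in PparaΔHep livers (vertical), blue where the gene was called in PparaΔHep livers, with the line of equal change. Cidec (3.46 and 1.11), Acot2 (2.20 and 0.01) and G0s2 (0.24 and -1.81) lie below the line and Serpina7 (0.02 and 2.61) above it, and none of the differences passed.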

How the data were processed

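Liver RNA was hybridised to 16 Affymetrix arrays, per the labels' protocols. The deposited log2 values were made by the authors with RMA, per the submitters' processing notes; the software version is not given in the sources used here. Of 72688 probe sets 30604 have 1 gene symbol, 2146 several and 39938 are not listed in the annotation; the brightest of several probe sets stood for a gene (355 genes). limma 3.58.1 (lmFit and eBayes, in R 4.3.3) was fitted to all 16 arrays with 4 group means and 12 residual degrees of freedom, on values as deposited, and tested on simulated data. P-values were adjusted by Benjamini-Hochberg over 30142 genes with a threshold of 0.05. Named genes are the 15 largest rises and 15 largest falls among called protein-coding genes without overlap. The higher PparaΔHep group mean had to be at least 6. Also named are the genes of the 6 lowest interaction p-values among protein-coding genes at that level, and members of lists. The members and lists were chosen with earlier results of these data known. Arrays are numbered in accession order. Alternatives were other scalings, filters, variance models, array weights, probe set rules and fits with arrays left out. The number of arrays limits the precision. RefSeq promoters (GRCm38.p6) were matched by symbol.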

Additional observations from a re-analysis of the deposited data

Results flagged for a closer look

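Over 354 groups of 4 arrays (both PparaΔHep groups for each gene named above), 17 held an array whose gap to the nearest other exceeded Dixon's 95% critical value, and chance flags about 1 group in 20. After PHx, array 1 stood apart for Cyp7a1 (6.39, next 2.54), Derl3 (6.84, next 4.47) and Jun (4.56, next 5.42), each time on the side of the sham arrays. PHx array 3 was highest for Actb (10.05, next 9.68) and lowest for Krt19 (2.41, next 2.49), and PHx array 2 was lowest for Atf6 (6.35, next 6.76).

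Among sham arrays, array 1 was lowest for Serpina7 (2.41, next 3.99) and highest for Sult1e1 (2.25, next 1.70) and Tpm4 (5.68, next 5.59). Sham array 2 was lowest for Pck1 (8.94, next 9.70) and Ppp1r3b (7.08, next 7.37) and highest for Plin4 (4.0, next 3.48). Sham array 3 was lowest for Calr (9.66, next 9.76) and Cyp2b10 (2.09, next 2.36) and highest for Crat (6.36, next 6.15). Sham array 4 was lowest for Pctp (5.92, next 6.35) and highest for Egfr (9.96, next 9.46). For no gene named above did every PHx array lie above sham in one genotype and below sham in the other.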

How the results depend on the processing

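Scaling moved the counts most. Over the kept genes, 3695 that rose became 1838 with array medians subtracted and 19019 after centring on bright genes, and 5263 that fell became 11386 and 1525. Over bright genes, 89 that rose became 42, 258 and 508 with array medians, cyclic loess and centring. In the same order, 883 that fell became 1196, 457 and 410. A filter on a group mean of 4 left 870 kept genes that rose, and testing only protein-coding genes left 1619, both over fewer genes. With PHx arrays 1 and 2 alone, 2204 kept genes rose and 2727 fell, and 33 bright genes rose and 546 fell; with arrays 3 and 4 alone 138 bright genes rose. Both settings were chosen after seeing the data. Leaving out 1 array at a time gave 2839 to 3669 kept genes that rose and 4197 to 5321 that fell, and 53 to 111 bright genes that rose (53 without PHx array 3) and 728 to 911 that fell. The cause of these shifts was not tested.

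The genotype difference was 0 genes under the other settings, 0 to 1 when 1 array was left out, and 3 with PHx arrays 1 and 2 alone. The gene without PHx array 1 was Camta2 (-0.53 in PparaΔHep, -0.00 in fl/fl livers, adjusted p = 0.0465). The 3 were Acot2 (-0.72 and 2.20), Cidec (0.29 and 3.46) and Mef2d (-0.30 and 0.35), with adjusted p of 0.021, 0.00632 and 0.0154.

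Of 177 genes named above, 125 stayed on their side of the threshold, with no called change turning sign, with PHx arrays 1 and 2 alone, 157 with arrays 3 and 4 alone, 155 without PHx array 3 and 152 after centring. Among genes called on the deposited scale or under the alternative, direction turned after centring for Creb3l3 (0.21), Bhlhe41 (0.29), Kif11 (0.18), Krt19 (0.28) and Uty (0.16, and 0.03 with cyclic loess), and with array medians for Alb (-0.11) and Col1a1 (-0.09). Genes called on neither scale also changed sign, 8 after centring (Hspa5 and Pctp among them), 6 with cyclic loess, 2 with array medians and 9 with PHx arrays 1 and 2 alone. No paired analysis was possible because arrays are numbered in accession order and the labels pair no samples between groups.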
